A study of Mus musculus with 2 samples.

Results

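The mitochondrial ribosomal protein genes were taken as the protein-coding genes whose symbol begins with Mrpl or Mrps followed by a digit. This gave 78 genes of 22028 protein-coding genes and 55536 annotated genes in all. Of these, 49 are Mrpl genes, named for the large subunit, and 29 are Mrps genes, named for the small subunit. The rule itself uses symbols and biotypes, not levels.

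The mitochondrial ribosome translates the few messenger RNAs that the mitochondrial genome encodes, all of which make subunits of the respiratory chain and ATP synthase. Its ribosomal RNAs come from mitochondrial DNA, but every one of its proteins is encoded in the nucleus, made in the cytosol and imported. Compared with the bacterial ribosome it has less RNA and more protein, and many of its proteins have no bacterial counterpart. In the adrenal gland, mitochondria also house the first step of steroid synthesis and the last steps of corticosteroid synthesis.

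Total RNA was sequenced from the adrenal gland of 2 female B6CASTF1/J mice aged 18 to 20 months. These mice are the first-generation cross of C57BL/6J and CAST/EiJ. The libraries form 1 group, with 1 library for each animal and no other genotype, age, sex or treatment. The names animal 1 and animal 2 follow the replicate numbers of the labels. Both carry the same donor identifier. One field of animal 2 even holds the female's name from animal 1, but the remaining fields name separate females and tissue samples. Differences between the animals therefore have no test, and library preparation cannot be told apart from the animal.

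Depth was close in both libraries. Expected counts (estimated reads or fragments of a gene) summed over annotated genes to 35452819 in animal 1 and 34879073 in animal 2. The 78 genes held 76010 of these counts in animal 1 and 65527 in animal 2. A single gene of the set held between 47.5 and 2479 counts in animal 1 and between 58.6 and 2206 in animal 2. Markers of the adrenal cortex (Star, Cyp11a1, Cyp11b1, Cyp21a1, Hsd3b1 and Nr5a1) summed to 15553 TPM in animal 1 and 20001 in animal 2, and 5 markers of the medulla to 1796 and 1517 TPM. TPM is transcript abundance per length, scaled to a fixed total.

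The first sequences shown are stretches in front of member genes, because a head-to-head arrangement with another gene was more frequent among the members than among detected genes. A partner gene on the opposite strand, starting at most 1000 bases upstream, was annotated for 18 of the 78 members (23.1%), against 1185 of 11552 detected protein-coding genes (10.3%). This is a description of the annotation, and the difference was not tested. The median distance between the start sites of these member pairs was 82 bases. Mrps12, a protein of the decoding centre, lies head to head with Sars2, the mitochondrial seryl-tRNA synthetase. The 171 bases between them, at chr7:28741821-28741991 on GRCm38, are printed on the strand of Sars2, so Mrps12 is read leftwards from the left end. Mrpl49 lies head to head with Fau, which encodes a cytosolic ribosomal protein fused to a ubiquitin-like protein, with 58 bases between them at chr19:6057786-6057843. Mrpl52 is shown as the most abundant member with an ETS motif whose window meets no annotated exon, as the 250 bases before its start at chr14:54426659-54426908. The sequences are from RefSeq promoters on GRCm38, and capitals mark matches, on either strand, to the 6 motifs searched.
Mrps12 to Sars2: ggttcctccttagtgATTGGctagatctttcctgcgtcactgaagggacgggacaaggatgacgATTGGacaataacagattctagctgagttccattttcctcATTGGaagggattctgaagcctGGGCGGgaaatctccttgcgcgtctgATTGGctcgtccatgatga
Mrpl49 to Fau: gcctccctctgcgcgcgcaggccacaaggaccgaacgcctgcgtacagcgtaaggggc
Mrpl52: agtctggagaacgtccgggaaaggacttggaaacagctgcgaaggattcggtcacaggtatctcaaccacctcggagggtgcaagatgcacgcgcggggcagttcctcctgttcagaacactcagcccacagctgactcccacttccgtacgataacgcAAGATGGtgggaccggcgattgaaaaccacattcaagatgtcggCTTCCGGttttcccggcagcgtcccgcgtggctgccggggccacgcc

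In the pairs printed, the 2 genes differed in level. Mrps12 had 28.4 TPM in animal 1 and 24.0 in animal 2, and Sars2 had 5.49 and 4.71 TPM in animals 1 and 2. Mrpl49, chosen after its values were seen, had 18.4 and 18.0 TPM in animals 1 and 2, while its neighbour Fau had 314 and 349 TPM. Both pairs kept their order in both animals. Other pairs were closer: Mrps18b had 25.1 and 28.2 TPM in animals 1 and 2, and its neighbour Ppp1r10 had 17.2 and 29.8 TPM, so their order differed between the animals. Ska3, a kinetochore gene, was at 0.11 and 0.07 TPM in animals 1 and 2 beside Mrpl57 at 32.7 and 28.9 TPM.

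Promoter windows were found for 69 of the 78 members. The 250 bases before the start were searched on both strands for 6 short motifs. The core of the NRF1 motif, GCGCATGC, occurred in 8 of 69 windows (11.6%), against 4.81% of windows of 9059 detected protein-coding genes or members and 2.26% of all 32851 windows of the table. NRF1 is a transcription factor known for nuclear genes of mitochondrial proteins. The ETS motif CCGGAAG occurred in 17 windows (24.6%), against 14.7% and 6.91%. The YY1 motif AAGATGG occurred in 6 windows (8.70%), against 4.16% and 4.49%. The GC box GGGCGG was in 33 windows (47.8%), below the 62.4% of detected genes and above the 32.7% of the whole table. CCAAT was in 36.2% of the member windows, against 35.7% and 33.8%, and TATAAA in 5.80%, against 5.91% and 12.4%. Each motif was counted on its own, and an ETS match can end in the 3 letters AAG with which a YY1 match begins. In the stretches above, the one between Mrps12 and Sars2 holds CCAAT, as ATTGG on the strand printed, and a GC box, Mrpl52 has a YY1 and an ETS match, and the stretch between Mrpl49 and Fau holds none of the 6. A match is not evidence of binding.

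The set as a whole was expressed at a moderate and rather even level. Its summed level was 2291 TPM in animal 1 and 2137 in animal 2, or 2214 ± 109 TPM (SD, n = 2). That was 0.229% and 0.214% of all TPM in animals 1 and 2, and 0.779% and 0.689% of the TPM of nuclear protein-coding genes. The median member had 25.2 TPM in animal 1 and 24.3 in animal 2. A member was called detected when both animals had 1 TPM or more, which 77 of 78 members reached, and Mrpl23 was the exception. Of the members, 73 lay above the median of detected protein-coding genes, which was 9.82 TPM, and 47 lay above the upper quartile of those genes, 21.2 TPM.

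Levels within the set lay closer together than those of detected genes at large. The upper quartile of detected members was 1.96 times the lower one, against 5.01 times over detected protein-coding genes. The same fold was 1.87 for cytosolic ribosomal proteins and 2.19 for nuclear-encoded respiratory chain subunits. Both of those sets were more abundant, with medians of 234 and 240 TPM in animals 1 and 2 for the cytosolic ribosomal proteins and of 131 and 120 TPM for the respiratory chain. Of the members, 65 had a mean between 10 and 50 TPM, 8 were above 50 TPM and 5 were under 10 TPM.

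**Figure D1:**
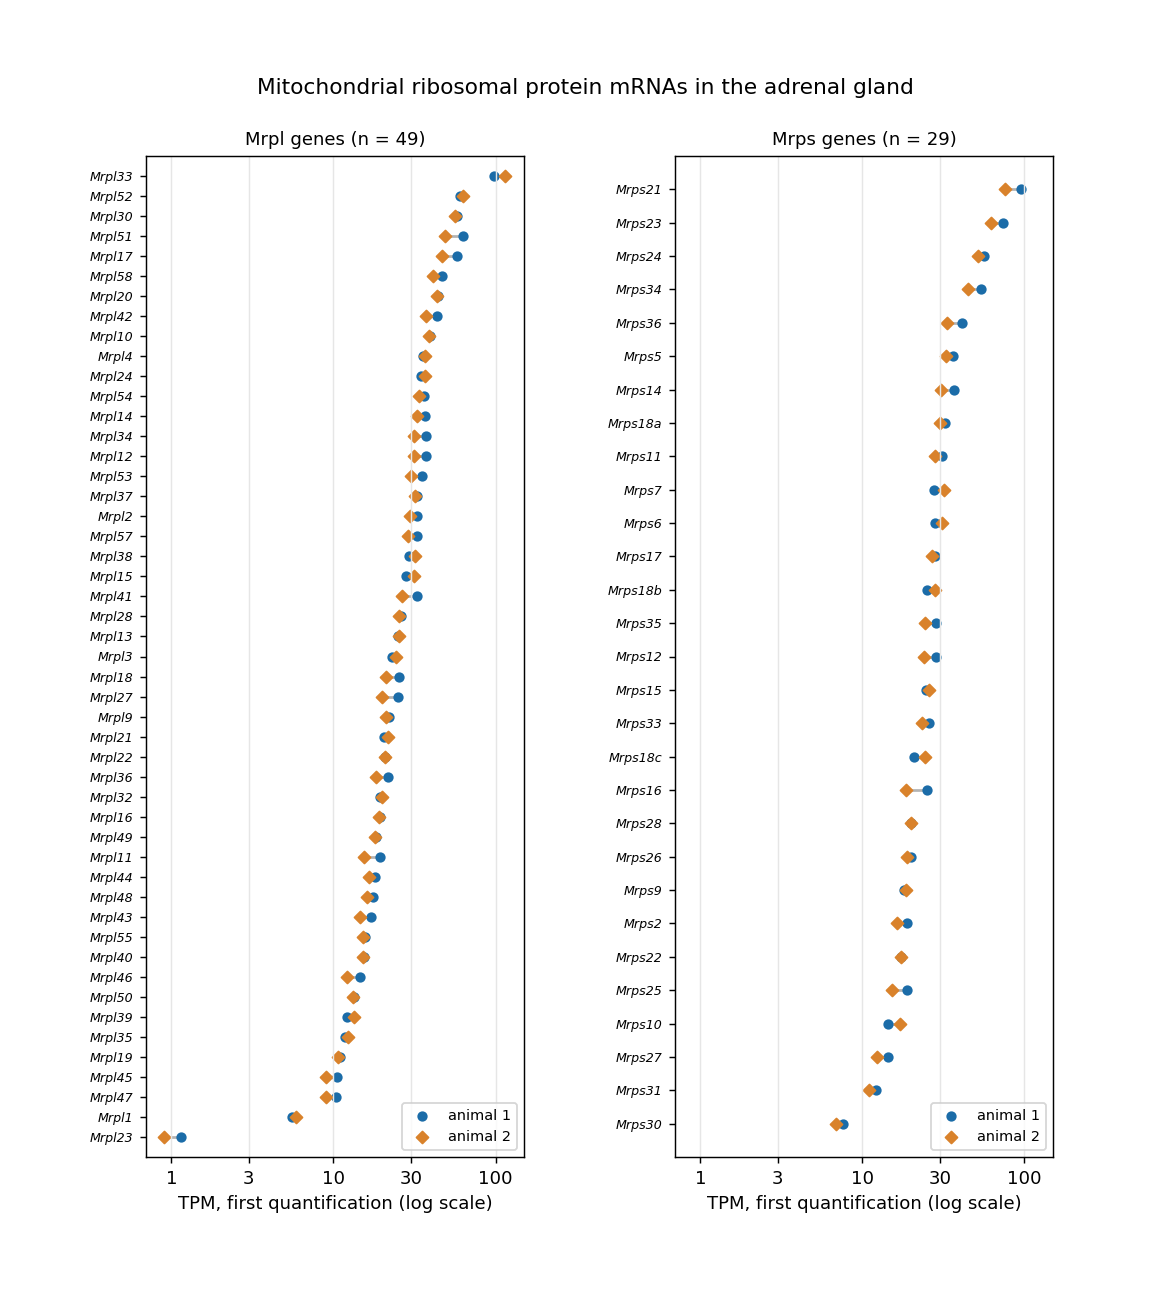
TPM of each mitochondrial ribosomal protein gene (log scale) in animal 1 (circles) and animal 2 (diamonds), with Mrpl genes on the left and Mrps genes on the right, sorted by the mean of both animals. Most points of a gene nearly coincide, Mrpl33 and Mrps21 lead the 2 panels, and Mrpl23 stands apart at 1.14 TPM in animal 1 and 0.90 in animal 2.

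The most abundant member was Mrpl33, a small protein of the large subunit with a bacterial counterpart. It had 97.3 TPM in animal 1 and 114 in animal 2. Mrps21, a small-subunit protein also present in bacteria, had 95.6 and 76.1 TPM in animals 1 and 2, so the 2 genes kept their order but were far apart in animal 2 only. Mrps23, which has no bacterial counterpart, followed with 73.4 and 62.2 TPM. The next members were Mrpl52, with 60.7 and 63.2 TPM, and Mrpl30, with 57.5 and 56.0 TPM, and the 2 animals differed little in both. Mrpl51 had 63.0 TPM in animal 1 and 48.6 in animal 2, and was thus higher in animal 1. Mrps24, the counterpart of bacterial S3, had 56.0 and 51.8 TPM, and Mrpl17 had 57.8 and 46.7 TPM. Mrps34 had 54.1 and 44.6 TPM. The tenth was Mrpl58, a peptidyl-tRNA hydrolase that is built into the large subunit, at 46.6 and 41.3 TPM. These 10 genes made up 28.6% of the TPM of the set.

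At the low end, Mrpl23 stood alone with 1.14 TPM in animal 1 and 0.90 in animal 2. Mrpl1 had 5.55 and 5.91 TPM in animals 1 and 2, and Mrps30 had 7.54 and 6.86 TPM. Mrps30, despite its name, sits in the large subunit in known structures, as does Mrps18a. Mrpl47 had 10.3 TPM in animal 1 and 8.94 in animal 2, and Mrpl45 had 10.5 and 8.95 TPM. The remaining low members, Mrpl19, Mrps31, Mrpl35, Mrpl39 and Mrpl50, had between 11.01 and 13.4 TPM in animal 1 and between 10.7 and 13.4 TPM in animal 2. Mrpl47 and Mrpl45 differed from each other by less than the animals did, while Mrpl23, Mrpl1 and Mrps30 lay further apart than that. The highest mean was 104 times the lowest, and 18.4 times the second lowest.

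The subunits did not stand apart in level. The median Mrpl gene had 25.1 TPM in animal 1 and 24.2 in animal 2, and the median Mrps gene had 25.9 and 24.3 TPM. The log2 of the large over the small median was -0.03 ± 0.03 (SD, n = 2), which is no larger than its spread. Members listed here with a bacterial counterpart (45 genes) had medians of 25.2 and 25.3 TPM in animals 1 and 2, and those not so listed (33 genes) had 25.1 and 23.5 TPM. The list was drawn up by hand and not checked against sequences.

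The 3 groups of the large subunit were described by their place in the particle. In the stalk that recruits translation factors, Mrpl12 had 37.0 TPM in animal 1 and 31.4 in animal 2, Mrpl10, which anchors it, had 39.6 and 38.6 TPM, and Mrpl11 at the base had 19.5 and 15.5 TPM. Mrpl12 is known to occur in several copies for each ribosome, but in these values its mRNA was no higher than that of Mrpl10. The second of the 2 deposited quantifications gave the opposite order for the gene sums. There, Mrpl12 had 86.0 and 70.9 TPM in animals 1 and 2, against 69.0 and 60.8 TPM for Mrpl10. Of this, the coding transcript Mrpl12-201 had 54.8 and 38.6 TPM, below Mrpl10. The transcript Mrpl12-202, not annotated as coding, had 31.2 and 32.4 TPM. Around the exit of the peptide tunnel, Mrpl24 had 34.6 and 36.6 TPM and Mrpl22 had 20.9 and 20.9 TPM in animals 1 and 2. Mrpl45, which links the exit to the inner membrane, and Mrpl47 were among the lowest genes, as given above. In the central protuberance, which faces the small subunit, the 7 members ran from Mrpl46, with 14.6 TPM in animal 1 and 12.1 in animal 2, to Mrpl58. Mrpl38 had 29.3 and 31.9 TPM, Mrpl18 had 25.2 and 21.1 TPM, and Mrpl27, whose bacterial counterpart reaches to the peptidyl transferase centre, had 25.1 and 19.9 TPM. Mrpl48 had 17.5 and 16.2 TPM, and Mrpl40 had 15.5 and 15.2 TPM. The levels within each of these groups differed by more than the animals did.

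Around the decoding centre and the head of the small subunit, 6 members ran from 15.7 to 34.5 TPM in their means. Mrps14 had 36.8 TPM in animal 1 and 30.5 in animal 2, and Mrps5 had 36.3 and 32.7 TPM. Mrps7 had 27.5 and 31.7 TPM and Mrps10 had 14.4 and 17.0 TPM, so both were lower in animal 1. Mrps9 had 18.0 and 18.5 TPM. The 3 Mrps18 paralogs are related to bacterial S18, and Mrps18c alone is counted here as its counterpart. Mrps18a had 32.2 and 30.3 TPM, Mrps18b had 25.1 and 28.2 TPM, and Mrps18c had 20.9 and 24.3 TPM in animals 1 and 2. Mrps36, which is now known as a subunit of the 2-oxoglutarate dehydrogenase complex rather than of the ribosome, had 41.1 and 33.4 TPM, and was named here after its values were seen.

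Short genes had the higher levels per length. The median transcript length of members was 955 bases, against 2448 for detected protein-coding genes, and 41 members were under 1000 bases. Across the 78 genes, log2 mean TPM and log2 length were related with r = -0.64 (Pearson) and rho = -0.66 (Spearman). Undivided expected counts had an r of only 0.10 with length, and a rho of 0.19. These genes share their libraries and are not independent replicates, so no p is given. TPM of short genes depends on the effective length that the quantification subtracts. The first tables subtract 99 bases from every transcript, while the second table subtracts a median of 328 bases in animal 1 and 323 in animal 2.

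Both animals gave nearly the same order of members. Across the 78 genes, log2 TPM of animal 1 and animal 2 were related with r = 0.985 (Pearson) and rho = 0.969 (Spearman). No member differed by at least 2-fold between the animals with deposited TPM intervals that did not overlap, against 3.47% of the 13569 genes that averaged 50 counts or more. The 2-fold number was also 0 for the 77 cytosolic ribosomal proteins with as many counts, and 2 of 79 for respiratory chain subunits. At 1.5-fold the number of members was also 0, against 9.7% of genes. The deposited interval covers the uncertainty of assigning reads within a library, not the variation between animals.

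Within that narrow range, most members were slightly higher in animal 1. The log2 ratio of animal 1 over animal 2, after TMM scaling of counts, ran from -0.38 to 0.46 with a median of 0.14. Of the members, 62 of 78 (79.5%) had a positive ratio, against 51.1% of all genes and 53.4% of protein-coding genes, whose medians were 0.01 and 0.03. Intervals lay apart with the higher value in animal 1 for 19 members (24.4%), against 12.3% of all genes. They lay apart with the higher value in animal 2 for 1 member, Mrpl33 (1.28%), against 20.7% of all genes. The direction depends on the scaling: with totals of the ERCC spike-ins, which are synthetic RNAs, the median member ratio was -0.08 and the median of all genes was -0.21, with 26 of 78 members (33.3%) and 4943 of 17012 genes (29.1%) positive. The member median was 0.13 above that of all genes, a difference that both scalings leave the same by construction. It was 0.16 with the ratio of deposited TPM, 0.15 in the second table and 0.11 with TMM over protein-coding genes.

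**Figure D2:**
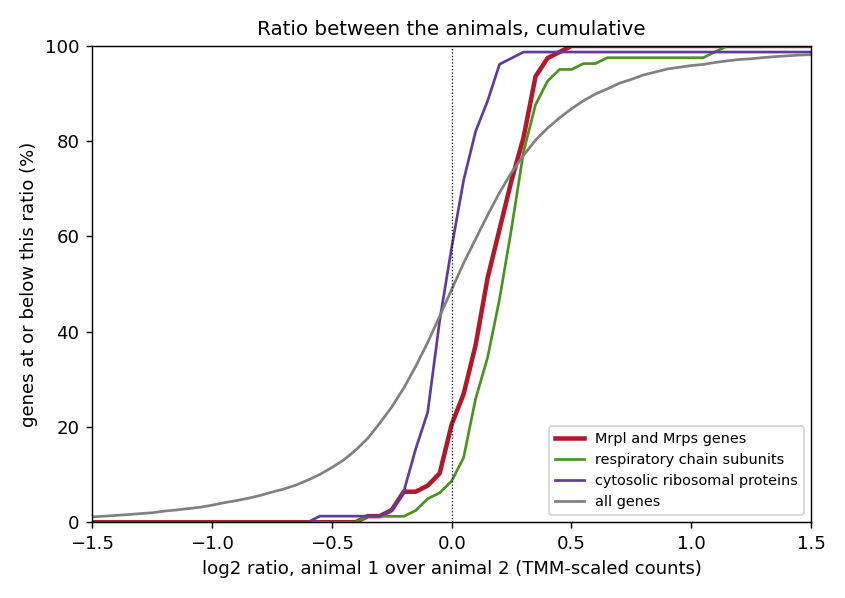
Cumulative share of genes (%) at or below each log2 ratio of animal 1 over animal 2, after TMM scaling, for the Mrpl and Mrps genes, respiratory chain subunits, cytosolic ribosomal proteins and all genes. The curve of the members crosses 0 with 62 of 78 genes to its right, lies there between those of the other 2 sets, and no member reaches 0.5. With ERCC totals 26 of 78 members and 29.1% of all genes are positive.

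The highest ratio was that of Mrps16, a small-subunit protein with a bacterial counterpart. It had 789 counts and 25.1 TPM in animal 1, against 541 counts and 18.5 TPM in animal 2, a log2 ratio of 0.46. Mrpl27 had a ratio of 0.41, Mrps21 of 0.37, Mrpl51 of 0.37 and Mrpl41 of 0.35. The intervals of all 5 lay apart. At the other end, Mrps10 had a ratio of -0.30, with 603 counts in animal 1 and 699 in animal 2. Mrps7 had -0.25, Mrpl33 -0.23 and Mrpl15 -0.20. The lowest ratio, -0.38, belonged to Mrpl23 on 47.5 counts in animal 1 and 58.6 in animal 2, although its TPM was higher in animal 1. Most of these counts were in transcripts annotated as retained intron. Its coding transcript Mrpl23-201 held 11.3 counts in animal 1 and 0 in animal 2. The second quantification gave the gene 617 and 634 counts in animals 1 and 2.

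Among the role groups, 3 of 3 stalk genes, 3 of 5 tunnel-exit genes, 6 of 7 central protuberance genes and 3 of 6 decoding-centre genes had a positive ratio under TMM, and 2 of 3, 2 of 5, 3 of 7 and 2 of 6 with the ERCC totals. Of the 45 genes listed with a bacterial counterpart 32 were positive, with a median of 0.11, and of the 33 not so listed 30 were positive, with a median of 0.18, which became 14 of 45 and 12 of 33 with the ERCC totals. Whether these groups differ was not tested.

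The rest of the mitochondrial translation pathway was read the same way. Of 5 proteins of the ribosome without an Mrp symbol, 2 had a positive ratio (0 with the ERCC totals) and the median was -0.01. Among them Aurkaip1 had 47.7 TPM in animal 1 and 49.5 in animal 2, Dap3, a GTP-binding protein of the small subunit, had 38.2 and 42.2 TPM, Ptcd3 had 25.5 and 29.6 TPM and Chchd1 had 25.1 and 24.4 TPM. Of 25 assembly and RNA modification genes, 19 were positive with a median of 0.15 (10 with the ERCC totals). Their levels were lower, with medians of 7.66 and 7.81 TPM in animals 1 and 2, apart from Ndufab1, the mitochondrial acyl carrier protein, at 156 and 161 TPM. The assembly genes next in level were Mpv17l2, with 38.2 and 36.3 TPM, the helicase Dhx30, with 26.6 and 32.4 TPM, and Rbfa, with 23.8 and 19.7 TPM. Of 16 translation factors, 13 were positive with a median of 0.15 (5 with the ERCC totals). The elongation factor Tufm had 64.9 and 66.7 TPM, the RNA-binding protein Slirp 55.3 and 49.2 TPM, the translocase Gfm1 36.9 and 33.5 TPM and the insertase Oxa1l 26.9 and 28.7 TPM. Of 17 mitochondrial aminoacyl-tRNA synthetases, 9 were positive with a median of 0.03 (6 with the ERCC totals). Among these, Cars2 had 31.9 TPM in animal 1 and 14.9 in animal 2, and Lars2 had 26.2 and 16.8 TPM. Iars2 had 23.6 and 27.9 TPM and Fars2 24.7 and 26.5 TPM. The log2 ratios of Cars2 and Lars2, 0.93 and 0.71, lay above the highest member ratio, 0.46. Ratios also reached 0.93 among the translation factors and 0.59 among the assembly genes. The lowest were -0.47 among the assembly genes and -0.43 among the synthetases, against -0.38, that of Mrpl23, among the members.

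Respiratory chain subunits showed the same direction, with 74 of 81 positive and a median of 0.21, and cytosolic ribosomal proteins did not, with 33 of 78 positive and a median of -0.02, against 38 of 81 and 3 of 78 with the ERCC totals. The ribosomal RNAs of the particle, mt-Rnr1 and mt-Rnr2, had 47580 and 42664 TPM in animal 1 and 57894 and 41329 TPM in animal 2. The libraries had been reduced in ribosomal RNA, so these 2 values depend on that step.

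Tissue markers also differed between the animals, in directions that varied with the tissue. Markers of striated muscle summed to 188 TPM in animal 1 and 0.55 in animal 2, with 10 of 10 higher in animal 1 and Ckm, Atp2a1, Myh2, Myh4 and Myh7 listed at 0 in animal 2. Brown fat markers summed to 1519 and 903 TPM in animals 1 and 2, with 5 of 6 higher in animal 1, and Ucp1 alone had 743 and 298 TPM. White fat markers summed to 1556 and 942 TPM with 5 of 5 higher in animal 1, and kidney markers to 1.18 and 1.33 TPM. Of the 5 medulla markers, 5 were higher in animal 1 with intervals apart and a median log2 ratio of 0.36 (3 of 5 higher with the ERCC totals). The cortex markers split, with Cyp11b1 and Cyp11a1 higher in animal 1 and Star, Nr5a1, Cyp21a1 and Hsd3b1 higher in animal 2. The muscle and fat counts were the same with the ERCC totals. None of the cortical, medullary or fat markers was at 0. The part of these tissues in the ratio of the members was not tested, and in such bulk tissue fewer cells of a type and less RNA per cell cannot be told apart.

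The low level of Mrpl23 in the first tables stood beside a high level of a near-identical copy. Mrpl23, at chr7:142532686-142540747, encodes a protein at the tunnel exit. Mrpl23-ps1, an annotated processed pseudogene on chromosome 2, matches its transcript without a mismatch over 540 bases, out of 692 bases of transcript Mrpl23-201. The first 300 coding bases of that transcript, which occur letter for letter in the pseudogene, are shown from GENCODE M21, in lower case throughout because no base distinguishes the genes.
Mrpl23: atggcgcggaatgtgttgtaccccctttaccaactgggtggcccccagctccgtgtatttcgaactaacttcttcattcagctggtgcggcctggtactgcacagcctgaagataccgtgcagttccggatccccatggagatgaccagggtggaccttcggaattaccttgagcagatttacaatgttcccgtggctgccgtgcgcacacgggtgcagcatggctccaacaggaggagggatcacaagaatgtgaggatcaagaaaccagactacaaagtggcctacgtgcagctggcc

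The first tables gave Mrpl23 47.5 expected counts in animal 1 and 58.6 in animal 2, and gave Mrpl23-ps1 512 and 524 counts. The pseudogene thus held 91.5% of the counts of the pair in animal 1 and 89.9% in animal 2. The second table gave the pseudogene 0 counts and gave Mrpl23 617 counts in animal 1 and 634 in animal 2. In TPM, Mrpl23 was at 1.14 and 0.90 in the first tables but at 57.8 and 60.1 in the second, in animals 1 and 2. The sum of the pair in the first tables, 28.6 and 31.6 TPM, lay near the median member. The deposited interval of Mrpl23, 1.20 to 5.23 TPM in animal 1 and 1.26 to 5.20 TPM in animal 2, did not contain either printed value. The level of Mrpl23 is therefore uncertain.

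Other members also have close copies. At an identity of at least 95% over at least 200 bases, 18 members had 23 pseudogene copies, named here after their values were seen where no rule named them. Beside Mrpl23, only 4 copies held more than 5% of the counts of their pair in both animals in the first tables. Mrpl48-ps held 11.1% of its pair in animal 1 and 9.38% in animal 2, a copy of Mrps10 held 9.67% and 7.11%, Gm5776, a copy of Mrps33, held 8.56% and 9.64%, and Gm13328, a copy of Mrps5, held 6.21% and 5.58%. In the second table the share of the Mrps10 copy was 7.06% and 6.18%, and those of the other 3 were under 0.3%. The highest-ratio members Mrps16, Mrpl27, Mrps21, Mrpl51 and Mrpl41 have copies too, which held under 1% of the pair in each animal in the first tables.

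Overlapping genes touch the same question. On the same strand, 13 members overlap another annotated gene, and 36 overlap one on the opposite strand. Mrpl47 overlaps Ndufb5, a respiratory chain gene with 114 TPM in animal 1 and 108 in animal 2. The kit keeps the strand, but whether the counting used it is not stated in the sources used here, so reads of such pairs may be shared.

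The 2 quantifications gave the same picture for most members and a different level for a few. The second table listed the members at 4774 TPM in sum in animal 1 and 4241 TPM in animal 2. Its median over the first tables was 1.89-fold for members and 1.71-fold for protein-coding genes, so genes outside the set differed between the tables too. Across members, the mean levels of the tables had a Pearson r of 0.75, and 0.93 without Mrpl23. The ratio between the animals had an r of 0.95 between the tables. It was positive in both for 62 members, negative in both for 13 and opposite for 3.

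Measured from the median of protein-coding genes, 2 members differed by at least 2-fold between the tables, Mrpl23 and Mrpl27, against 1.18% of 12614 protein-coding genes. Mrpl27 had 25.1 TPM in animal 1 and 19.9 in animal 2 in the first tables, and 97.7 and 79.6 TPM in the second. There, 2 short transcripts of the type processed transcript, of 439 and 442 bases, held 23.4 and 32.8 TPM in animal 1 and 24.98 and 24.0 TPM in animal 2. In the first tables these 2 held 1.69 and 0 TPM in animal 1, and 1.53 and 0.38 TPM in animal 2. The next were Mrpl3, Mrpl35 and Mrpl22, each over 0.7 above the median on the log2 scale. In the other direction Mrpl17 stood 0.82 below it, with 53.7 and 47.1 TPM in the second table, followed by Mrpl15, Mrps5, Mrpl50 and Mrps30, which stood 0.18 to 0.32 below.

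**Figure D3:**
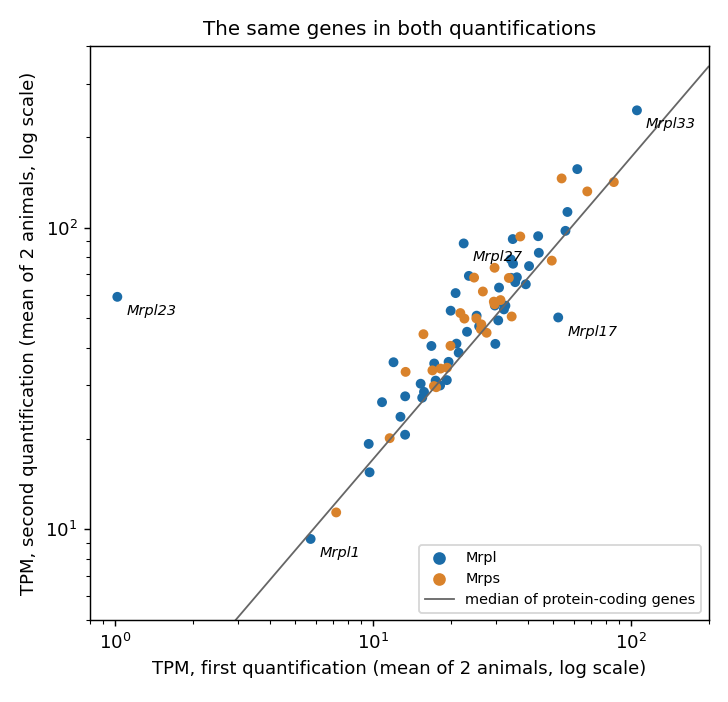
Mean TPM of each member over both animals in the second quantification against the first, both on log scales, with Mrpl genes in blue and Mrps genes in orange. The line is the median of protein-coding genes, 1.71-fold. Most points follow the line, and Mrpl23 lies far above it.

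A smaller share of the members' TPM was assigned to protein-coding transcripts than over all nuclear protein-coding genes, a set that includes the members. TPM divides by length, so short transcripts weigh more in these shares than they would in counts. The 78 genes have 343 annotated transcripts, of which 170 are protein coding, 88 retained intron, 61 processed transcript and 24 nonsense-mediated decay. Protein-coding transcripts held 77.3% of the TPM of the set in animal 1 and 75.5% in animal 2, against 86.9% and 85.1% for nuclear protein-coding genes. In the second table the shares were 72.7% and 70.0%, against 82.3% and 80.4%. The gap was in the same direction in each animal and each table, though both tables come from the same 2 libraries. The share was uneven among members: 48 had at least 90%, 18 had less than 50% and 8 had less than 10%, and 14 were under 50% in both tables. Shares gene by gene were not computed outside the set, so these counts have no background.

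The 5 lowest shares were those of Mrps26, Mrpl51, Mrpl57, Mrps16 and Mrps14. For Mrps26, the 1057-base transcript Mrps26-201, annotated as retained intron, had 19.1 TPM in animal 1 and 18.0 in animal 2, and the 4278-base coding one had 0.87 and 0.73 TPM. Mrpl51-202, a processed transcript of 855 bases, had 39.9 and 31.2 TPM, while the 3427-base coding transcript had 2.55 and 2.38 TPM. Mrpl57 followed the same pattern, with 30.8 and 27.2 TPM in the 519-base Mrpl57-202 and 1.89 and 1.77 TPM in the 2877-base coding transcript. Mrps16-202, of 801 bases, had 23.6 and 17.2 TPM, against 1.5 and 1.28 TPM for the coding transcript of 2572 bases. In these 4 genes the short transcript held most of the TPM in both tables, and the only annotated coding transcript was several times longer. The type is thus a label of the annotation, and whether these short transcripts are translated is not measured here.

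Mrps14 differed from the other 4. In the first tables Mrps14-201, of the type nonsense-mediated decay, had 34.1 TPM in animal 1 and 28.1 in animal 2, and the coding Mrps14-202 had 1.17 and 1.05 TPM. In the second table Mrps14-202 had 72.6 and 56.3 TPM. The 2 transcripts are 674 and 787 bases long, and the tables gave the larger part to different ones. The leading transcript was the same in both tables for 59 of 78 members.

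**Figure D4:**
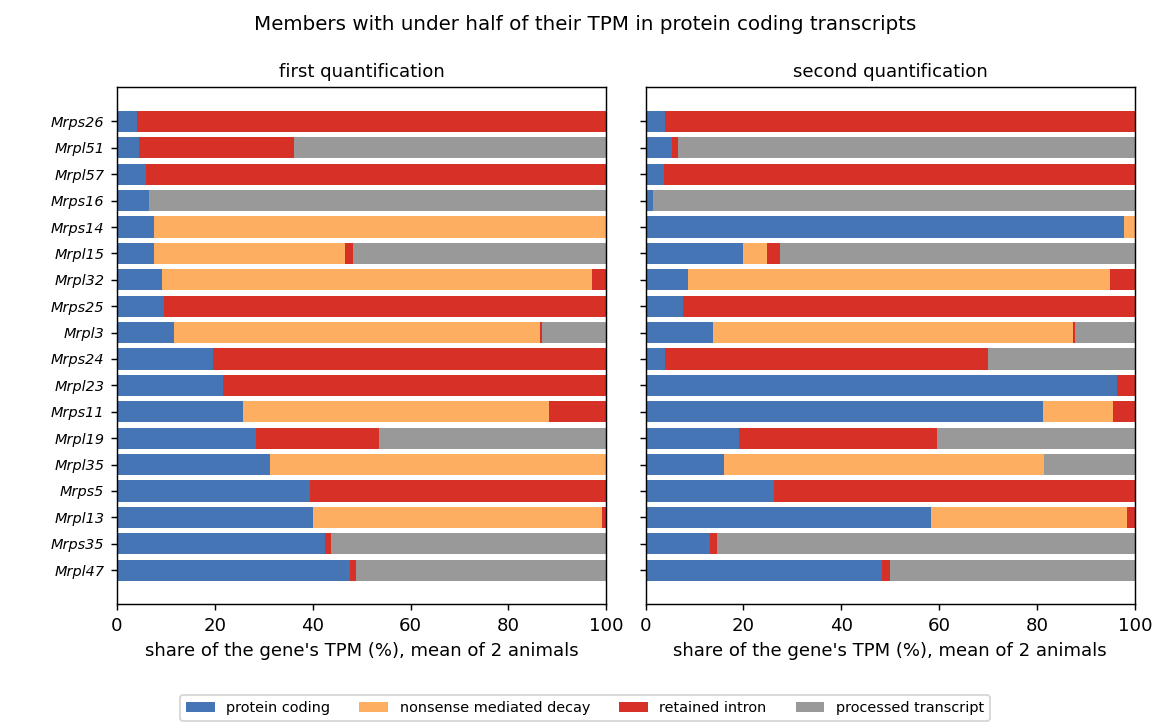
Share of TPM (%) by transcript type, as the mean of both animals, for the 18 members with less than 50% in protein-coding transcripts, in the first (left) and second (right) quantification. The bars of Mrps26, Mrpl51, Mrpl57 and Mrps16 have little protein-coding share on both sides, and that of Mrps14 changes from mostly nonsense-mediated decay to mostly protein coding.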

How the data were processed

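Gene and transcript tables of 2 adrenal libraries were used. Per the deposited description of the files, the gene table and first transcript table were derived from a transcriptome alignment (mm10, GENCODE M21), and the second transcript table directly from reads and an index. The deposited tables hold estimated counts (expected counts), TPM and, for genes, lower and upper interval bounds of TPM whose level is not stated in the sources used here. Column names are those written by RSEM and kallisto, and no program or version is given in the sources used here. The authors' values were not changed.

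Expected counts were rounded and scaled by TMM in edgeR 4.0.16 (R 4.3.3), with 0.5 added, and ratios taken where counts averaged 10 or more (50 or more for calls). With 1 library for each animal there is no p-value. On simulated counts of 13570 genes, 200 were changed 4-fold, as many up as down, with no other shift. The scaled ratio recovered 199 of these 200 at the 2-fold limit, and 1 unchanged gene also passed it. The noise was a fixed setting, because 1 library for each animal gives no estimate of it. The interval rule was not applied there, and a shift as small as that of the members was not simulated. DESeq2 1.42.0 size factors, ERCC totals and other settings were alternatives. Pseudogene copies were found with blastn against GENCODE M21 transcripts, and promoters came from RefSeq (GRCm38). The genome is that of C57BL/6J, and any effect of the CAST/EiJ alleles on the counts was not tested. Named genes are the 10 highest and lowest by TPM, the 5 extremes of the ratio, of the difference between tables and of the coding share, the Mrps18 paralogs, members of the role lists, and the 4 highest of each pathway list. The members and lists were chosen with earlier results of these data known.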

Additional observations from a re-analysis of the deposited data

How the results depend on the processing

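The number of detected members was 77 or 78 under each alternative, and no member was 2-fold apart between the animals under any of the 9 alternatives run for it, the 1.5-fold limit included. The summed level of 2214 TPM became 7340 TPM when scaled to nuclear protein-coding genes alone and 1692 TPM over protein-coding transcripts, as the construction of these 2 sums implies. It was 4507 TPM in the second table. All protein-coding genes also summed higher there, with 716019 and 711416 TPM in animals 1 and 2. In the first tables they summed to 353206 and 377000 TPM. The cause was not tested. The SD of log2 TPM among members, 0.94, was 0.83 in the second table, 0.70 on counts not divided by length and 0.85 with 1 added to TPM. Without Mrpl23, the SD of log2 mean TPM in the first tables was 0.78 and that of log2 mean counts 0.53. The second table was not read without Mrpl23. Its SD of log2 mean TPM over all members was 0.826, above the 0.78 of the first tables without Mrpl23. In it, Mrpl23 had a mean of 59.0 TPM, near the median member at 50.6 TPM. The log2 of large over small median, -0.03, was 0.055 in the second table and -0.071 on counts, and the cause was not tested. The share in protein-coding transcripts, 76.4%, was 71.4% in the second table. The median log2 ratio between the animals, 0.14, turned to -0.081 with ERCC totals, and lay between 0.11 and 0.16 under the other alternatives. Without replicate 1 or 2, the sum was 2137 and 2291 TPM, the detected number 77 and 78, the SD 0.94 in both, the large over small value -0.01 and -0.04 and the coding share 75.5% and 77.3%. The ratio needs both libraries, so neither could be left out of it. No paired analysis was possible because the labels give 1 group. The counts of Mrpl23 and of its near-identical copy both differed between the tables. How reads were divided between these genes was not tested.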
